A study of Homo sapiens with 4 samples.

Results

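The ID genes and the feedback genes of BMP-SMAD signalling were compared between leukemia cells that carried an shRNA against LDB1 and cells that carried a control vector. The 10 genes chosen were ID1, ID2, ID3, ID4, SMAD6, SMAD7, SKIL, BAMBI, SMAD1 and SMAD5, and each was found by its gene name in the deposited expression table of 28412 genes. Of these, 8 had a row in the table. ID4 and SMAD1 were not analysed here. The set was chosen by the measured log2 difference between sh-LDB1 and sh-NC, since ID3 was among the highest ranked, so their values in this comparison are a description and carry no test.

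RNA-seq was performed on 4 libraries of a human line that the labels name NB4, a line derived from acute promyelocytic leukemia. The 2 sh-NC libraries (the controls) came from cells with the control vector, although the source field of the labels calls them untreated, and the 2 sh-LDB1 libraries came from cells in which LDB1 was knocked down by a lentiviral shRNA vector. Of 3 shRNAs designed against human LDB1, the one used for sequencing is not given in the sources used here, so the comparison rests on a vector whose own effects cannot be told apart from those of LDB1. Nothing states whether the libraries of a group came from separate cultures, so p-values measure only the spread between these libraries, which may be technical.

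Bone morphogenetic proteins (BMPs) bind a pair of type II and type I receptors at the cell surface. The type I receptor then phosphorylates the receptor SMADs (SMAD1, SMAD5 and SMAD9), which enter the nucleus with SMAD4 and switch on target genes. The ID genes are the best known of these targets. ID proteins have a helix-loop-helix domain without a DNA-binding region, so they hold E-proteins (TCF3, TCF4 and TCF12) in pairs that cannot bind DNA, and E-proteins are the partners with which TAL1 and LYL1 bind E-boxes in blood progenitors. SMAD6 and SMAD7 are inhibitory SMADs, SKIL is a nuclear corepressor of SMADs, and BAMBI is a decoy receptor without a kinase, and all of them are targets of the pathway as well as brakes on it. LDB1 is the adaptor that joins the TAL1, LMO2 and GATA complex on DNA.

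The depth of the libraries was recovered from the steps of the values and was 14565569 to 16773671 reads, and between 12910 and 13443 genes reached 1 FPKM (a level per kilobase of gene and per depth of the library) in a library. The log2 levels of the 13300 genes tested correlated across genes at 0.985 between the sh-NC libraries and 0.984 between the sh-LDB1 libraries, and at 0.856 to 0.863 between groups. These correlations run over genes, which are not independent replicates, and only describe how alike the libraries were. LDB1 was at 135.1 and 120.1 FPKM in the controls against 10.2 and 9.47 FPKM after knockdown, which matches the labels.

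The label NB4 was set against marker genes. MPO and CTSG were not analysed here, and among the other defining granule genes of promyelocytes ELANE was listed at 0 in 3 of the 4 libraries and PRTN3 reached 1.29 and 1.18 FPKM in the controls. The 14 erythroid markers summed to 4003 and 4167 FPKM in the controls and to 388.5 and 352.4 FPKM after knockdown. All 14 reached 1 FPKM in both sh-NC libraries, and the 13 that could be tested all fell past the threshold given below. HBZ, an embryonic globin, was at 1543 and 1600 FPKM in the controls against 58.9 and 61.3 FPKM after knockdown. The granulocytic list summed to 28.0 and 26.6 FPKM in the controls and to 79.4 and 76.4 FPKM after knockdown, with 4 of 8 tested genes past the threshold upward. The megakaryocytic list summed to 9.16 and 8.52 FPKM in the controls and to 4.79 and 4.39 FPKM after knockdown, the monocytic list to 0.25 and 0.26 FPKM and to 5.73 and 5.70 FPKM, and the lymphoid list to 24.1 and 21.3 FPKM and to 44.9 and 47.7 FPKM. The control libraries labelled NB4 therefore carried high erythroid marker levels beside low promyelocytic granule genes, and each member described here was compared in cells where these lists moved as well. Fewer cells of a type and less RNA per cell cannot be told apart in bulk samples, and the part of these lists in the results below was not tested.

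The stretches before the gene starts of ID3, ID1 and SMAD6 are shown because these members had the largest differences of the set. Each is the 250 bases before the RefSeq start of the gene on GRCh38.p14, written 5′ to 3′ in the direction of the gene. Capitals mark a match on either strand to GTCTAGAC (the palindrome of the SMAD binding site), GGCGCC (a GC-rich element known to bind BMP receptor SMADs), CAGNTG (an E-box), GATAA (the core of a GATA site) or TATAA (the core of a TATA box). TATAA was added after the sequences had been seen, and a match on one strand can overlap a match on the other.
ID3 on chr1:23559502-23559751, minus strand:
ID3: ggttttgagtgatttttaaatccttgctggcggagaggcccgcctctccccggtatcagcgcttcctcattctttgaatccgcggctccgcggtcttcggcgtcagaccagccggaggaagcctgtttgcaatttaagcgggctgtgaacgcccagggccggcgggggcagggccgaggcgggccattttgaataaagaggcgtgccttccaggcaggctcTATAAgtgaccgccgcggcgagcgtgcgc
ID1 on chr20:31605039-31605288, plus strand:
ID1: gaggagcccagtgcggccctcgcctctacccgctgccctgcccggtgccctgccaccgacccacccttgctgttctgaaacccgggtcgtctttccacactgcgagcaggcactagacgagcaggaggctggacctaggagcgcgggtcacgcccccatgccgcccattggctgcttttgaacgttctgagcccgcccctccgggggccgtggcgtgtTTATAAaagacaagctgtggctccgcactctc
SMAD6 on chr15:66701986-66702235, plus strand:
SMAD6: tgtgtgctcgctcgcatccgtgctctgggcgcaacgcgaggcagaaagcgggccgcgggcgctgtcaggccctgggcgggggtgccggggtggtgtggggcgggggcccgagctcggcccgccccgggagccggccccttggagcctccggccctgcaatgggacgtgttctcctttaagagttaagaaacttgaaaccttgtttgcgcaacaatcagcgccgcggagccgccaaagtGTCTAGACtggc

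The SMAD6 stretch holds the palindrome, which begins 12 bases before the start. The same letters are found in 0.182% of the 35116 windows of this length before RefSeq gene starts, and SMAD6 was the only one of the 8 members with values whose windows hold them. The ID3 and ID1 stretches hold no SMAD palindrome, GC-rich element, E-box or GATAA, which says only that these letters are not in these windows. Both hold TATAA close to the start, beginning 29 bases before it in ID3 and 32 and 31 bases before it, on the opposite strands, in ID1. TATAA is found in 18.9% of all windows and in windows of 3 of the 8 members, the remaining one being SMAD7. GGCGCC is found in 16.4% of all windows and in those of BAMBI and SKIL, of which BAMBI holds it 3 times. CAGNTG is found in 42.5% of all windows and in windows of 3 members, ID2, SMAD5 and SMAD7, while GATAA is found in 20.4% of all windows and in that of ID2 only among the members. These matches are letters in a sequence and no binding was measured here. The last bases of the ID1 stretch lie inside the first exon of ID1 in the GENCODE annotation, which places the start slightly upstream.

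Levels were compared as log2(FPKM + 1), on which a fold change of low genes is understated, and the standard error (SE) came from limma. A gene passed the threshold when limma gave a Benjamini-Hochberg adjusted p below 0.05 and the fold on this scale was above 2 or below 0.5. Of the 8 members, 5 lay past the threshold upward and 0 downward, where 9.5% of the 13300 genes tested were called higher and 10.3% were called lower. By the adjusted p alone, 7 members were higher and 1 was lower, beside 29.9% and 37.4% of all genes. The groups did not overlap for any of the 8 members, with 7 higher and 1 lower in sh-LDB1, beside 38.3% and 46.3% of all genes. The members were picked with this comparison known, so nothing is read from these counts. All 8 passed the filter of a mean of 1 FPKM. The median difference of the members was 1.13 on the log2 scale and that of all genes tested was -0.08. Scaling the libraries to the same summed FPKM shifted the median of all genes by 0.14 and scaling to the same upper quartile shifted it by 0.22 on the log2 scale, and the direction of each of the 8 members was the same under both.

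**Figure D1:**
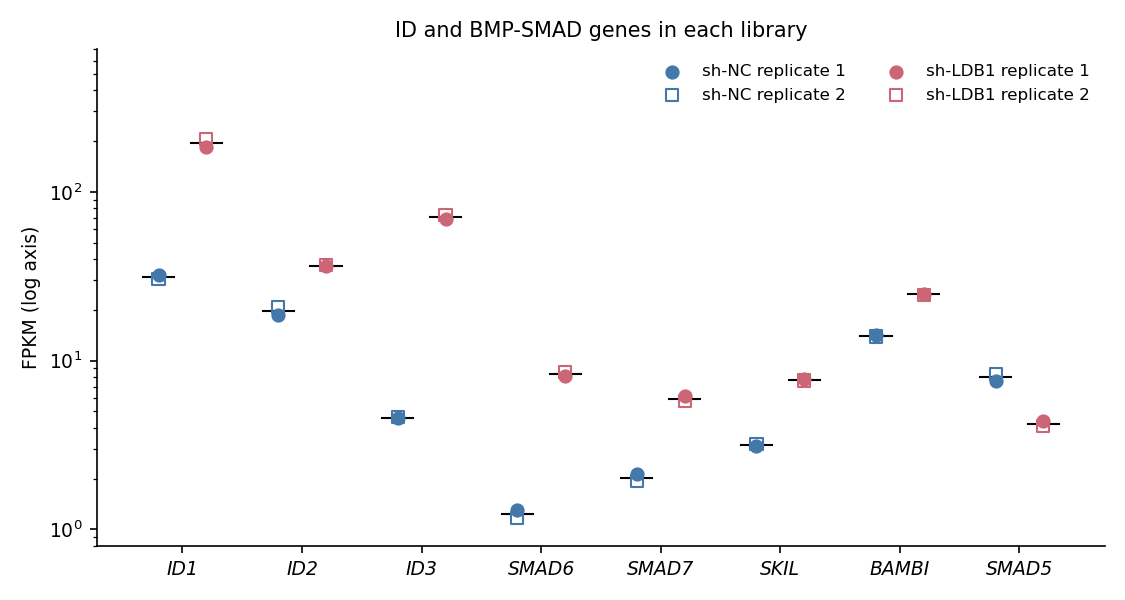
FPKM of the 8 members with values (log axis) in the 2 sh-NC libraries (blue) and the 2 sh-LDB1 libraries (red); circles are replicate 1, open squares replicate 2, and black lines the mean of each group. The sh-LDB1 points sit above the sh-NC points for 7 genes, most of all for ID3, and below them for SMAD5.

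Among the ID genes, ID3 showed the largest difference. ID3 (ENSG00000117318, GENCODE position chr1:23557926-23559501, minus strand) was at 4.57 and 4.60 FPKM in the controls against 69.5 and 73.3 FPKM after knockdown. These values rest on 133 and 122 recovered reads in sh-NC and on 2000 and 1993 reads in sh-LDB1. Both sh-LDB1 libraries were far above both sh-NC libraries, with a ratio of the group means of 15.6. On the log2 scale the difference was 3.69 (SE 0.0492, n = 2 per group), which ranked 8 among the rises of all genes tested. By level, ID3 moved from percentile 41.8 of the tested genes in sh-NC to percentile 96.1 in sh-LDB1.

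ID1, the member of the family most often used as a readout of BMP signalling, had the highest level of the ID genes in every library. ID1 (ENSG00000125968, chr20:31605283-31606515, plus strand) was at 32.0 and 30.6 FPKM in the controls against 184.8 and 206.6 FPKM after knockdown. The groups did not overlap, although the sh-LDB1 libraries lay further apart, with a mean of 195.7 ± 15.4 FPKM (SD, n = 2) against 31.3 ± 1.02 FPKM in sh-NC. The difference was 2.60 on the log2 scale (SE 0.0686), the ratio of the means was 6.25, and the gene ranked 71 among the rises.

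ID2 differed less. ID2 (ENSG00000115738, chr2:8678845-8684461, plus strand), which is known for its part in lymphoid and dendritic cell fate, was at 18.7 and 20.8 FPKM in the controls against 36.2 and 36.7 FPKM after knockdown. The groups did not overlap, and the difference of 0.85 on the log2 scale (SE 0.0620) stayed below the fold threshold. It passed that threshold with the libraries scaled to the same summed FPKM or the same upper quartile. The antisense gene ID2-AS1, which overlaps ID2 on the other strand, was at 0.24 and 0.26 FPKM in the controls against 0.45 and 0.38 FPKM after knockdown. Whether strand was used in counting is not given in the sources used here, so reads of the pair cannot be told apart.

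The make-up of the ID transcripts differed between groups as well. The summed FPKM of ID1, ID2 and ID3 was 55.3 and 55.9 in the controls against 290.5 and 316.6 after knockdown. ID3 made up 8.26% and 8.23% of this sum in the controls against 23.9% and 23.2% after knockdown. ID2 made up 33.9% and 37.1% in the controls against 12.5% and 11.6% after knockdown, while ID1 held the largest share in all 4 libraries, from 54.7% to 65.2%. In sh-NC the order of the levels was ID1, ID2 and ID3, and in sh-LDB1 it was ID1, ID3 and ID2, with no overlap between neighbours in either order.

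Of the inhibitory SMADs, SMAD6 differed more than SMAD7. SMAD6 (ENSG00000137834, chr15:66702236-66782849, plus strand), which acts mainly on BMP receptors and SMADs, was at 1.31 and 1.16 FPKM in the controls against 8.14 and 8.54 FPKM after knockdown. The sh-NC values rest on 181 and 147 reads and the sh-LDB1 values on 1117 and 1107 reads. Both sh-LDB1 libraries were well above both sh-NC libraries, by 2.06 on the log2 scale (SE 0.0767) and by a ratio of the means of 6.75, and the gene moved from percentile 9.77 to percentile 60.9 of the tested genes by level. This is the gene whose stretch before the start holds the SMAD palindrome shown above.

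SMAD7, which blocks TGF-beta as well as BMP receptors, had a smaller difference. SMAD7 (ENSG00000101665, chr18:48919853-48950965, minus strand) was at 2.12 and 1.93 FPKM in the controls against 6.13 and 5.75 FPKM after knockdown. The groups did not overlap, and the difference was 1.20 on the log2 scale (SE 0.0786) with a ratio of the means of 2.93. The summed FPKM of SMAD6 and SMAD7 was 3.43 and 3.09 in the controls against 14.3 and 14.3 after knockdown. In sh-NC SMAD7 was the higher of the pair in both libraries, and in sh-LDB1 SMAD6 was.

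SKIL and BAMBI, the corepressor and the decoy receptor, were also higher in sh-LDB1. SKIL (ENSG00000136603, chr3:170357342-170396835, plus strand) was at 3.10 and 3.19 FPKM in the controls against 7.76 and 7.62 FPKM after knockdown, a difference of 1.07 on the log2 scale (SE 0.0596). BAMBI (ENSG00000095739, chr10:28677510-28682932, plus strand) was at 14.2 and 13.9 FPKM in the controls against 25.0 and 24.3 FPKM after knockdown, a difference of 0.77 (SE 0.0447). The groups did not overlap for either gene, and BAMBI stayed below the fold threshold except with the libraries scaled to the same upper quartile.

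SMAD5, the receptor SMAD of the set, was the member that was lower. SMAD5 (ENSG00000113658, chr5:136132845-136188747, plus strand) was at 7.60 and 8.30 FPKM in the controls against 4.37 and 4.08 FPKM after knockdown. Both sh-LDB1 libraries were below both sh-NC libraries, by -0.78 on the log2 scale (SE 0.0720), and the mean in sh-NC was 1.88 times that in sh-LDB1, which is short of the fold threshold. The summed FPKM of the inhibitory SMADs relative to SMAD5 was 0.451 and 0.373 in the controls against 3.26 and 3.50 after knockdown. The antisense gene SMAD5-AS1, on the other strand of the locus, was at 0.0747 FPKM or below in all libraries.

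**Figure D2:**
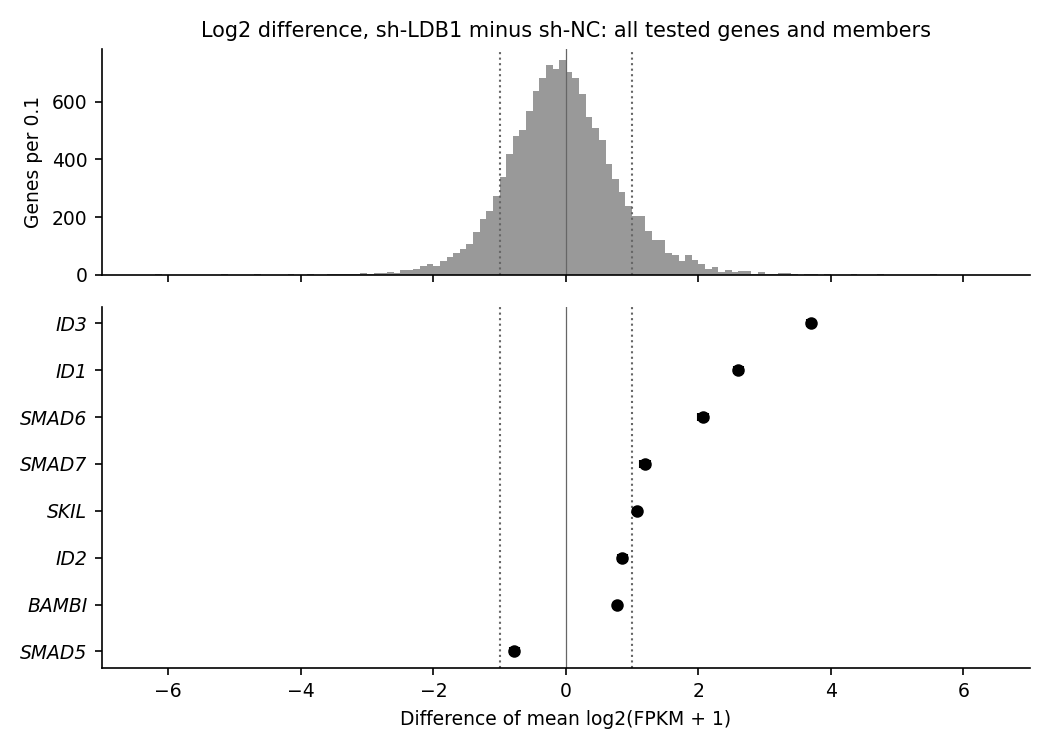
Log2 difference, sh-LDB1 minus sh-NC, of mean log2(FPKM + 1): the upper panel counts all 13300 genes tested in steps of 0.1, the lower panel shows the 8 members with the standard error as bars, and dotted lines mark a fold of 2. ID3, ID1 and SMAD6 lie at 3.69, 2.60 and 2.06, in the upper tail of all genes, and SMAD5 at -0.78.

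The E-proteins that ID proteins bind were lower. TCF3, TCF4 and TCF12 were all tested, and 0 of the 3 passed the fold threshold. All 3 fell by the adjusted p alone, as did 37.4% of all genes. TCF3, which encodes E12 and E47, was at 49.9 and 48.7 FPKM in the controls against 26.5 and 26.3 FPKM after knockdown, and fell by 0.87 on the log2 scale (limma, adjusted p = 0.00017). TCF12 was at 7.46 and 7.88 FPKM in the controls against 5.17 and 4.72 FPKM after knockdown, and fell by 0.55 (limma, adjusted p = 0.0026). TCF4 was low, at 1.35 and 1.52 FPKM in the controls against 0.75 and 0.70 FPKM after knockdown. The difference was -0.49 (limma, adjusted p = 0.030), and -0.55 to -0.44 with 1 library left out. TCF4 passed the filter of a mean of 1 FPKM only through the sh-NC libraries, so it could be tested only because it was high there. Its adjusted p from limma was above 0.05 with the same summed FPKM (0.053), the same upper quartile (0.074), the replicate block (0.058) and no filter (0.053).

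Relative to these partners, the ID transcripts stood at about the same summed level in sh-NC and far above them in sh-LDB1. The summed FPKM of the E-proteins was 58.7 and 58.1 in the controls against 32.5 and 31.8 after knockdown. The ratio of summed ID FPKM to summed E-protein FPKM was 0.943 and 0.964 in the controls against 8.95 and 9.97 after knockdown, with means of 0.953 ± 0.0148 and 9.46 ± 0.720 (SD, n = 2). Taken over recovered reads, without division by gene length, the mean ratio was 0.241 for sh-NC against 2.20 for sh-LDB1. These are ratios of transcript levels and no protein was measured.

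**Figure D3:**
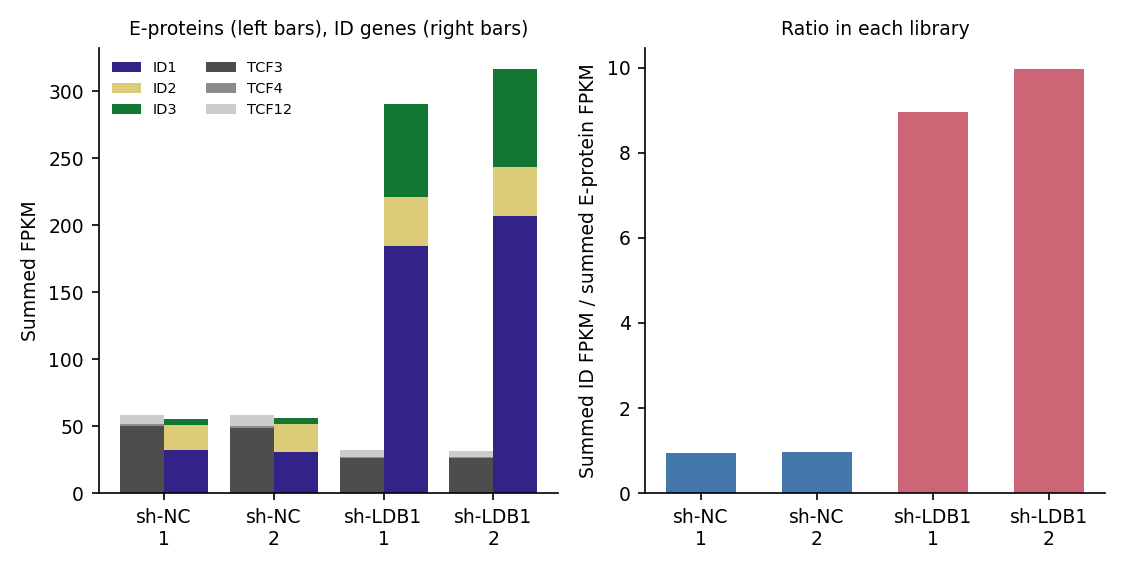
Left, summed FPKM of the E-proteins TCF3, TCF4 and TCF12 (grey, left bar of each pair) and of ID1, ID2 and ID3 (coloured, right bar) in each library; right, the ratio of the ID sum to the E-protein sum. The ratio is near 0.95 in both sh-NC libraries and 8.95 and 9.97 in the sh-LDB1 libraries, where the ID1 segment is the tallest.

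Among the tissue-restricted helix-loop-helix factors that pair with E-proteins, 7 of the 20 listed could be tested. Past the threshold 1 rose and 3 fell, which is 14.3% and 42.9% of the 7, beside 9.5% and 10.3% of all genes. TAL1, the factor that heads the erythroid complex on E-boxes, was at 30.2 and 30.5 FPKM in the controls against 5.72 and 6.92 FPKM after knockdown, and fell by 2.10 on the log2 scale (limma, adjusted p = 0.00015). LYL1, its closest relative in blood cells, fell by 1.37 from 99.8 and 106.7 FPKM to 38.0 and 40.7 FPKM (limma, adjusted p = 0.00015). TAL2 fell by 1.27 (limma, adjusted p = 0.0062), but it rests on 27 and 15 reads in sh-NC and 3 and 2 reads in sh-LDB1. SCX, a tendon factor, rose by 2.46 (limma, adjusted p = 0.0010), and it overlaps BOP1 on the other strand, so its reads cannot be told apart from those of BOP1, which was at 106.2 and 100.5 FPKM in the controls against 44.7 and 46.0 FPKM after knockdown. The ratio of summed ID FPKM to the summed FPKM of TAL1 and LYL1 was 0.426 and 0.408 in the controls against 6.64 and 6.65 after knockdown. TAL1 and the erythroid markers given above fell in the same libraries, and the part of that change in the ratio was not tested.

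USP1, the deubiquitinase known to stabilise ID proteins, fell. It was at 19.1 and 21.2 FPKM in the controls against 7.39 and 7.12 FPKM after knockdown, a difference of -1.36 on the log2 scale (limma, adjusted p = 0.00021). Of the 4 genes listed for the stability of ID proteins, USP1 was the only one past the threshold. Over the 14 tested partner and stability genes, 1 rose and 4 fell past the threshold. This is 7.14% and 28.6% of the 14, beside 9.5% and 10.3% of all genes. Their median difference was -0.71 beside -0.08 for all genes tested. TAL2 and TCF4 are among the 14 only through their sh-NC levels, which bears on both the count and the median.

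The other genes of the pathway were taken from lists of its ligands, receptors, regulators and targets. Of 143 genes listed, 114 had values and 71 could be tested. Past the threshold, 13 rose and 4 fell, which is 18.3% and 5.63% of the 71, beside 9.5% and 10.3% of all genes. By the adjusted p alone 39 rose and 18 fell, beside 29.9% and 37.4% of all genes. The median difference was 0.41 beside -0.08 for all genes. The shares of all genes given here stand beside the counts of each list below as well.

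Among the ligands of the BMP side, 4 of 22 listed could be tested, and 2 rose and 0 fell past the threshold. The pair that rose, GDF15 by 1.14 (limma, adjusted p = 0.00022) and AMH by 1.06 (limma, adjusted p = 0.00025), are distant members of the family: GDF15 signals through a receptor outside the SMAD system and AMH through its own type II receptor. BMP2, a classical BMP named here after its values were seen, was at 0.46 and 0.64 FPKM in the controls against 2.11 and 1.96 FPKM after knockdown. The groups did not overlap, and BMP2 rose by 0.97 by the adjusted p alone (limma, adjusted p = 0.0036), just short of the fold threshold. BMP2 passed the filter of 1 FPKM only through the sh-LDB1 libraries, as TAL2 and MSX1 did only through the sh-NC libraries. BMP2 passed the fold threshold with a lower pseudocount, with either other scaling, with voom on recovered reads, without sh-NC replicate 2 and without sh-LDB1 replicate 2. Of the TGF-beta and activin ligands, 3 were tested and 2 rose. TGFB1 was at 87.0 and 91.0 FPKM in the controls against 243.6 and 245.9 FPKM after knockdown, and rose by 1.45 (limma, adjusted p = 9.0e-05). INHA, the inhibin alpha subunit that opposes activin, rose by 1.44 (limma, adjusted p = 0.00016).

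The type I receptors stood out by ACVRL1 (ALK1), which is known from endothelial cells as the receptor for BMP9 and BMP10. It was at 0.55 and 0.35 FPKM in sh-NC, from 45 and 26 reads, and at 18.0 and 19.3 FPKM in sh-LDB1, from 1454 and 1473 reads. ACVRL1 rose by 3.76 on the log2 scale (SE 0.0970; limma, adjusted p = 8.0e-05). The size depends on the pseudocount, since the ratio of the mean FPKM was 41.4 and the log2 difference ran from 3.66 to 5.38 over the alternatives, with the highest value at a pseudocount of 0.01. ACVRL1 passed the filter of a mean of 1 FPKM only through the sh-LDB1 libraries, so it could be tested only because it was high there. ACVR1 (ALK2) was at 5.05 and 6.46 FPKM in the controls against 15.6 and 15.0 FPKM after knockdown, and rose by 1.28 (limma, adjusted p = 0.00086). BMPR1A rose by 0.56 by the adjusted p alone (limma, adjusted p = 0.014), and not with either sh-LDB1 library left out, while BMPR1B was at 0.0322 FPKM or below in every library. With ACVRL1 included, the 5 type I receptors tested rose by the adjusted p alone, and 2 of them past the fold threshold.

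The make-up of the BMP type I receptor transcripts differed between groups as well. The summed FPKM of ACVRL1, ACVR1, BMPR1A and BMPR1B was 6.54 and 7.98 in the controls against 35.7 and 36.3 after knockdown. ACVR1 made up 77.2% and 80.9% of the sum in the controls against 43.7% and 41.4% after knockdown. ACVRL1 made up 8.43% and 4.38% in the controls against 50.5% and 53.2% after knockdown, so that it was the largest part in both sh-LDB1 libraries.

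Of the type II receptors, 0 of 4 tested genes passed the fold threshold in either direction and 2 were higher by the adjusted p alone. ACVR2A, an activin and BMP receptor named here after its values were seen, was at 0.49 and 0.35 FPKM in the controls against 1.49 and 1.72 FPKM after knockdown, a ratio of the means of 3.81. It rose by 0.87 by the adjusted p alone (limma, adjusted p = 0.0071), and passed the fold threshold with a pseudocount of 0.1 or 0.01 and with voom on recovered reads. It too passed the filter only through the sh-LDB1 libraries. TGFBR2, the type II receptor of TGF-beta, was under the filter, at 0.0281 FPKM or below in every library. It is also named here after its values were seen. BMPR2, the type II receptor of the BMPs, was at 0.88 and 1.02 FPKM in the controls against 1.38 and 1.56 FPKM after knockdown. The difference of 0.34 did not pass (limma, adjusted p = 0.076), although the groups did not overlap. Of the co-receptors, 4 were tested and 1 rose past the threshold. This was ENG (endoglin), the partner of ACVRL1 in endothelial cells, which was at 1.13 and 0.95 FPKM in the controls against 3.84 and 3.51 FPKM after knockdown and rose by 1.20 (limma, adjusted p = 0.00083). Among the markers of fibroblasts and endothelial cells, 5 of 6 had values, 0 passed the filter, and their summed level was 0.34 FPKM in both sh-NC libraries and 2.69 and 2.54 FPKM in sh-LDB1. COL1A1 was at 0.10 and 0.03 FPKM in the controls against 1.06 and 1.18 FPKM after knockdown, COL3A1 at 0.05 and 0.04 against 0.76 and 0.59 FPKM, and PECAM1 at 0.18 and 0.26 against 0.64 and 0.62 FPKM. DCN was listed at 0 in both controls and at 0.17 and 0.14 FPKM after knockdown, and KDR was at 0.0571 FPKM or below throughout. The part of these markers in the levels of ACVRL1 and ENG was not tested.

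**Figure D4:**
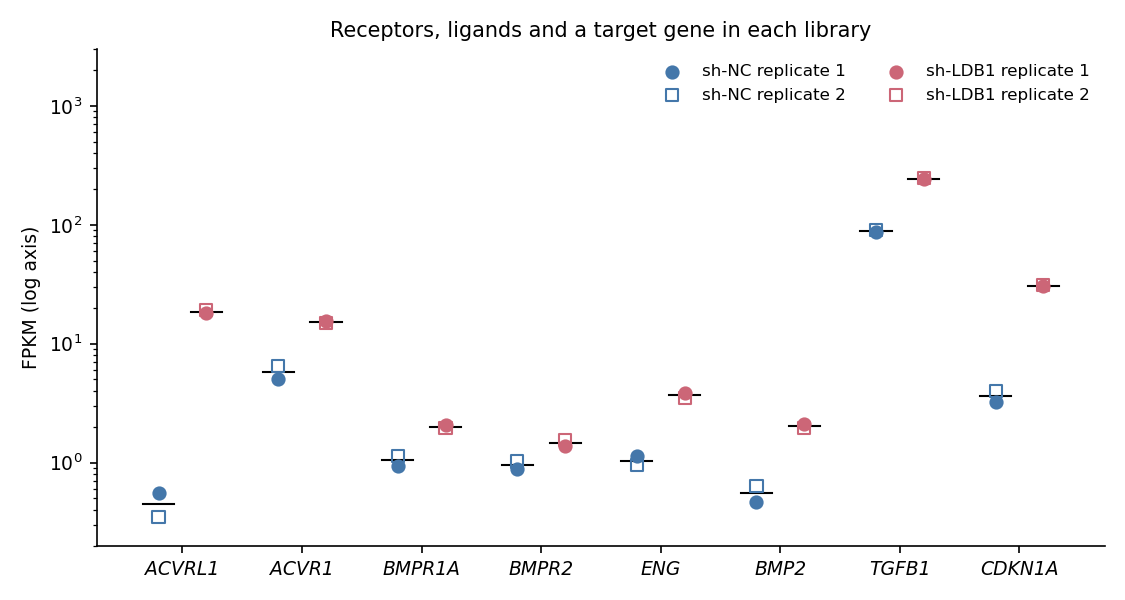
FPKM (log axis) of 3 type I or type II BMP receptors and ACVRL1, the co-receptor ENG, the ligands BMP2 and TGFB1 and the TGF-beta target CDKN1A in the 4 libraries, with symbols and lines as in the plot of the members. ACVRL1 shows the widest gap between groups, from 0.55 and 0.35 FPKM to 18.0 and 19.3 FPKM.

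None of the 3 tested SMADs outside the chosen genes passed the fold threshold. SMAD4, the common partner, was at 3.97 and 3.93 FPKM in the controls against 4.99 and 4.82 FPKM after knockdown, a rise of 0.26 by the adjusted p alone (limma, adjusted p = 0.021) that was lost with any 1 library left out. SMAD3, a receptor SMAD of the TGF-beta side, fell by 0.41 by the adjusted p alone (limma, adjusted p = 0.0053), and did not pass with the same upper quartile. SMAD2 differed by 0.04 and did not pass (limma, adjusted p = 0.78). SMAD9, the BMP receptor SMAD related to SMAD5, was under the filter, at 0.09 and 0.04 FPKM in the controls against 0.23 and 0.24 FPKM after knockdown.

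Among 20 tested intracellular negative regulators, 1 rose and 1 fell past the threshold. TOB1, a SMAD-binding antiproliferative factor, rose by 1.26 (limma, adjusted p = 0.0011) and ZNF451, a corepressor, fell by 1.07 (limma, adjusted p = 0.00038). SMURF1, the ubiquitin ligase that targets SMAD1 and SMAD5, rose by 0.66 by the adjusted p alone (limma, adjusted p = 0.0014). SKI, the relative of SKIL, rose by 0.41 in the same way (limma, adjusted p = 0.0049), while SMURF2 differed by 0.24 and did not pass (limma, adjusted p = 0.082). Of 4 tested extracellular antagonists 1 fell, TWSG1, by 1.10 (limma, adjusted p = 0.00035). TWSG1 and ZNF451 both missed the fold threshold with the libraries scaled to the same summed FPKM or the same upper quartile. Of 13 tested coactivators and adaptors, XIAP rose by 1.46 (limma, adjusted p = 0.00016) and FOXH1 fell by 1.76 (limma, adjusted p = 0.00011).

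Few of the remaining BMP target genes could be tested. Of 16 listed, 3 passed the filter, and 0 rose and 1 fell past the threshold, while by the adjusted p alone 1 rose and 2 fell. The rise, that of HAMP (hepcidin, named after its values were seen), was 0.48 (limma, adjusted p = 0.024), and its adjusted p was above 0.05 with any 1 library left out (0.053 to 0.080), with the replicate block (0.0508) and with no filter (0.0503). The one that fell was MSX1, a homeobox gene, from 3.38 and 4.45 FPKM to 0.85 and 0.90 FPKM, by 1.38 on the log2 scale (limma, adjusted p = 0.0013). Of the TGF-beta target genes, 11 were tested, 4 rose past the threshold and 0 fell, and 10 rose by the adjusted p alone. CDKN1A, the cell cycle inhibitor p21, rose by 2.80 from 3.22 and 3.98 FPKM to 30.7 and 31.0 FPKM (limma, adjusted p = 0.00011). BHLHE40 rose by 1.26 (limma, adjusted p = 9.5e-05) and KLF10 by 1.17 (limma, adjusted p = 0.00023).

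**Figure D5:**
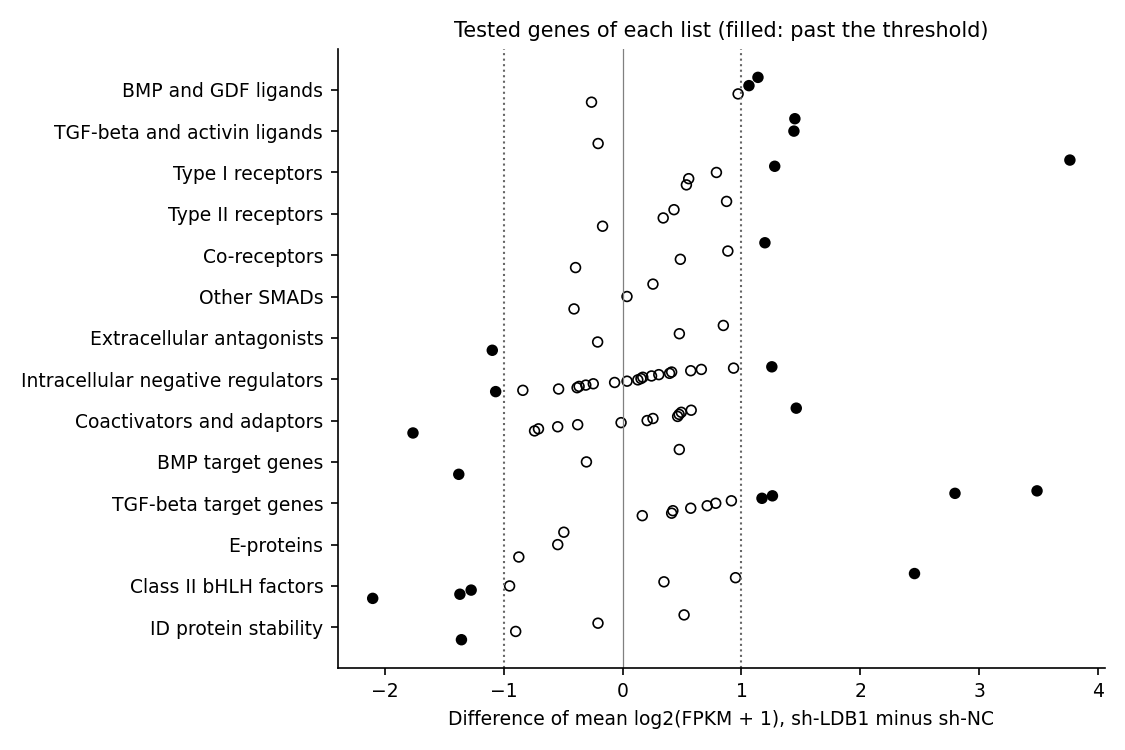
Log2 difference, sh-LDB1 minus sh-NC, of each tested gene in the lists of pathway, partner and stability genes; filled points passed the adjusted p and the fold threshold, and dotted lines mark a fold of 2. The 5 type I receptors and the 11 TGF-beta target genes all lie above 0 and the 3 E-proteins below 0, while the intracellular regulators lie on both sides.

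The genes most like ID3, ID1 and SMAD6 were sought among tested genes that averaged at least 5 FPKM, by the Euclidean distance between centred log2(FPKM + 1) levels over the 4 libraries. With only 4 libraries in 2 groups, this finds genes with a like difference on the log2(FPKM + 1) scale, and the ratios of their FPKM can be far apart where the control level is low. TYROBP, for example, was at 0 and 0.07 FPKM in the controls against 14.0 and 16.4 FPKM after knockdown. The 5 nearest to ID3 were SELENOM, ANGPTL4, ACVRL1, CXCL8 and TYROBP, at distances of 0.0406, 0.0956, 0.163, 0.254 and 0.293. ACVRL1 is thus in both the receptor list and this one. The 5 nearest to ID1 were ATG16L2, TTYH3, SLC17A5, AMPD2 and CHPF2, at 0.0753 to 0.110, and the 4 nearest to SMAD6 were TMEM208, ANO8, CREB3 and PTGDR2, at 0.0486 to 0.0585. SMAD6 and SMAD7 averaged below 5 FPKM and so could not be found as neighbours.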

How the data were processed

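RNA-seq was measured in 4 libraries of an established cell line, grouped by the sample labels. Filtered reads were mapped by the authors with HISAT (HISAT2 2.0.5 and hg38 in the submitters' processing notes), and 1 table of FPKM was deposited; the counting tool, annotation and use of strand are not given in the sources used here. The authors called changed genes with DESeq2, and those calls were not used. The table held 0 columns of no sample.

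Whole reads were recovered from the steps of the FPKM values. The divisor of each library came from the GENCODE release 44 lengths (same build) of single-transcript genes. For each gene, a length that gave whole reads in all libraries was then sought over a wide range around its GENCODE length. Such a length was found, within 0.0001 of a whole number, for 98.9% of matched genes. Of the fitted lengths, 77.8% lay within 10% of the GENCODE length. Read counts of single genes rest on the fitted lengths. Totals were 14565569 to 16773671 reads, so the absolute depth rests on both kinds of length. Relative to the geometric mean over libraries, the median gene stood at 1.0083 in all 4, so the deposited FPKM already carried such a scaling.

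The 13300 genes averaging at least 1 FPKM were fitted as log2(FPKM + 1) with limma 3.58.1 in R 4.3.3 (eBayes with trend, no replicate block), adjusted by Benjamini-Hochberg; the adjusted p limit was 0.05 and the fold limits 2 and 0.5. The fit was also run on reads simulated from the sh-NC means with known folds and a fixed spread for all genes. That run checks the code and does not measure how well the fit suits these libraries. Members and lists were chosen with earlier results of these data known, and the lists hold well-known pathway genes. Named genes were the members, LDB1, set partners, receptors and SMADs, up to 4 genes past the threshold with the largest differences per list, the 5 nearest genes to ID3, ID1 and SMAD6, and markers used for the label; others are marked. Some items that this rule names are not reported here. Promoter sequences came from RefSeq on GRCh38.p14 and matched 8 members by symbol. Alternatives changed the pseudocount (0.1, 0.01), filter, scaling, variance trend, test, replicate block and libraries.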

Additional observations from a re-analysis of the deposited data

How the results depend on the processing

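The difference of each member kept its direction under every alternative: 3.66 to 3.96 on the log2 scale for ID3, 2.52 to 2.88 for ID1, 0.78 to 1.12 for ID2, 2.02 to 2.75 for SMAD6, 1.15 to 1.55 for SMAD7, 1.05 to 1.29 for SKIL, 0.75 to 1.03 for BAMBI and -0.91 to -0.54 for SMAD5. With a filter of 5 FPKM 3 members were higher, since SMAD6 and SMAD7 were not tested, 710 genes were called higher, and 2 pathway genes fell. Under limma treat against a fold of 2, 3 members were higher, SKIL and SMAD7 being lost, 568 genes were higher and 581 lower, and 7 pathway genes rose and 1 fell. With no fold threshold 3983 genes were higher and 4978 lower, 1 member was lower, 39 pathway genes rose and 18 fell, and 4 partner and stability genes rose and 9 fell. With the same upper quartile 833 genes were lower, and 20 pathway genes rose and 2 fell; with the same summed FPKM 2 pathway genes fell. The lower share of calls was 52.0% as deposited, 38.5% with the same summed FPKM and 31.3% with the same upper quartile. The number of partner and stability genes that rose was 2, BHLHA15 being added, with a pseudocount of 0.1 or 0.01, both scalings, voom on recovered reads, and without sh-NC replicate 1, where 1.70 and 0.68 FPKM in sh-NC were 11 and 4 reads. The reversed result was PPP1R15A, a phosphatase regulator in the pathway list, at 0.023 with the same upper quartile against -0.25 (the cause was not tested). The ratio of ID to E-protein levels was 0.241 and 2.20 over recovered reads, and 1.13 and 11.5 against TCF3 alone, in sh-NC and sh-LDB1; ID1 to ID3 alone gave the same values, as ID4 was not analysed.

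With 1 library left out, which assumes that the lone library varies like the others, 1251 to 1289 genes were higher and 1352 to 1430 lower, 5 members were higher and 0 lower, 13 to 14 pathway genes rose and 4 fell, 1 to 2 partner and stability genes rose and 4 to 5 fell, and the ratio was 0.943 to 0.964 in sh-NC and 8.95 to 9.97 in sh-LDB1. Same-numbered libraries deviated together at a correlation of 0.0196 over 13300 genes, so the numbers were not read as a pairing. With the replicate block 1274 genes were higher and 1386 lower, and 5 members, 13 rising and 4 falling pathway genes were past the threshold. Genes of few reads, such as TAL2, are the least certain, and counting error is only part of the spread between 2 libraries.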
